A study of Mus musculus with 5 samples.

Results

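Among lineage-traced cells of the mouse small intestine, a rule on a few marker genes chose 507 of 9451 cells (5.36%, exact binomial 95% interval 4.92 to 5.84%) as enterocytes, the absorptive cells of the villus. The rule kept cells in which Fabp1, Rbp2, Mttp, Alpi and Reg1 together reached at least 100 unique molecular identifiers (UMIs) per 10000 UMIs of the cell. It left out cells in which the goblet cell genes Zg16, Fcgbp, Clca1 and Spink4 together reached 500 or Chgb, a granule protein of endocrine cells, reached 20 per 10000. The enterocyte limit was met by 769 cells, of which 262 were left out, 177 of them over the goblet limit and 20 over both limits. The members were thus chosen by their measured levels of these 10 genes, which are given as a description. The members just inside the enterocyte limit stood at 101, 102 and 103 per 10000 and the cells just outside it at 98.7, 98.6 and 98.0, and 12 members lay between 100 and 120. At the goblet limit the nearest cells stood at 497 inside and 506 outside, and at the Chgb limit at 18.5 and 20.3.

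The cells were tdTomato+ cells sorted from the small intestine of 4 untreated C57Bl/6J mice, 6 weeks old and pooled in 1 droplet library. The mice were Neurog3-Cre; R26-LSL-tdTomato, so that every descendant of a cell that once had Cre stayed labeled, whatever it became. A second experiment gave libraries that the rule did not see. It sorted tdTomato+ (CCK+) and tdTomato- (CCK-) cells from the intestinal epithelium for bulk RNA sequencing. The mice carried Cck-Cre and R26-LSL-tdTomato on C57Bl/6J and were 6 to 8 weeks old. The paper's methods name the small intestine as the source, whereas a figure legend names the duodenal epithelium. Each library holds the CCK+ or the CCK- cells of 1 mouse, after an overnight fast or after a fast and refeeding with Ensure, a liquid diet, which makes 4 groups of 3 libraries. The library names carry the letters A to F, each once for CCK+ and once for CCK-, and whether a letter marks the same mouse is not stated. The CCK- cells are all other epithelial cells of the sort, and not a pure enterocyte sample. The titles of all 4 bulk groups name CCK+ cells, whereas their cell-type labels and the table name 2 groups CCK-. Cck itself was at 27.6 to 86.0 normalized counts in the 6 libraries labeled CCK- and at 14837 to 32592 in the 6 labeled CCK+.

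Enterocytes line the villi and take up the products of digestion. Brush border enzymes cut sugars and peptides at the cell surface, transporters carry them in, and fat is rebuilt inside the cell and sent out in chylomicrons. Enterocytes change as they move from the base of the villus to its tip, where they are shed. Neurog3 is the transcription factor that starts the endocrine program in the crypt, and lineage tracing from it is known to mark some cells of other fates. Neurog3 mRNA itself was detected in 0 of the 507 members (at most 0.592% of them could hold a UMI, as a count of 0 allows) and in 27 of the 8944 remaining cells.

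The library held 108489965 UMIs in 475960 barcodes, with no barcode listed more than once. Barcodes with 1 to 100 UMIs held 1.85% of all UMIs, and the sum of these barcodes is called free RNA here. With 1 library and no replicates the droplet data carry no test, and the 95% intervals on shares and levels cover counting error only. The members had a median of 8818 UMIs and 6.63% mitochondrial UMIs, and the remaining cells a median of 5867 UMIs and 2.15%. Depth and mitochondrial share thus moved with membership, and their part in the differences below was not tested. At a mitochondrial limit of 20% in place of 10% the members numbered 747.

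The label held for most of the members and not for all. Clustering of the 507 members split off 108 cells (21.3% of the members, 17.8 to 25.1%) that had high Fabp1, which encodes the liver-type fatty acid-binding protein, and hardly any of the other 4 enterocyte genes. The same 108 cells separated at Leiden resolutions of 0.3, 0.5 and 1. In them the summed level of 8 tuft cell markers was 73.8 per 10000, against 0.867 in the other 399 members and 0.896 in the remaining cells. Tuft cells are rare chemosensory cells of the epithelium that signal to immune cells. The 108 cells are called tuft-like here, and the other 399 are called Rbp2-high members after a gene of the rule that they shared. The clustering used all genes of these cells, so every difference between the subclusters is a description.

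The sequences upstream of 3 genes are shown because these genes differ in summed level between the kinds of members. Fabp1 was high in both, Alpi, the intestinal alkaline phosphatase of the brush border, was above the free RNA level of 0.727 per 10000 in Rbp2-high members (5.50) and below it in tuft-like members (0.131), and Rgs13, a regulator of G protein signaling, was at 27.2 in tuft-like and 0.141 in Rbp2-high members, against 0.269 in free RNA. The sequences are from RefSeq (GRCm38.p6), written 5′ to 3′ on the strand of the gene, and no gene of the GENCODE annotation lies in them. Fabp1 is on the plus strand (chr6:71199629-71199826, cut at the first base of the gene in GENCODE), and Alpi (chr1:87101607-87101856) and Rgs13 (chr1:144177373-144177622) are on the minus strand. Capitals mark matches on either strand to 6 motifs. The intestinal factor CDX2 binds TTTATNG, and the TATA box reads TATAAA. HNF4 factors bind CAAAGTCCA and CAAAGTTCA, GATA factors bind AGATAA, and POU factors bind ATGCAAAT.
Fabp1: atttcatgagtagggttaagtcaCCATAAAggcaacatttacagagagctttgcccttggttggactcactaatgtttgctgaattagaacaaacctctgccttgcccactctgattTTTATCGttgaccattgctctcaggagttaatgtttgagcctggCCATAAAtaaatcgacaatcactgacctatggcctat
Alpi: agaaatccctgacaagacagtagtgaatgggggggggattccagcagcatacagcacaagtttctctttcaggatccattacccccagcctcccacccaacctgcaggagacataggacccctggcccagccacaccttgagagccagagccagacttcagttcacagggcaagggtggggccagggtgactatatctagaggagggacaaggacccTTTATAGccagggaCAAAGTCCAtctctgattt
Rgs13: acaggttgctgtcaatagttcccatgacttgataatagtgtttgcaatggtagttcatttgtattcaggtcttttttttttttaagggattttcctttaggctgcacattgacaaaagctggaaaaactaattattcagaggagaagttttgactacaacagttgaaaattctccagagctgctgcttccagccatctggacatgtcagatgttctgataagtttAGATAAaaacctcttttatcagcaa
Fabp1 held 3 CDX matches, 227, 133 and 89 bases before the RefSeq start, and TATAAA at 30 bases, past the end of the printed stretch. Alpi held a CDX match 33 bases before the start, overlapped by a TATA match on the opposite strand, and CAAAGTCCA at 19 bases. Rgs13 held AGATAA at 25 bases. Of 32807 windows of 250 bases upstream of genes, 9.81% held a CDX match, 12.4% TATAAA, 9.99% AGATAA, 0.384% CAAAGTCCA, 0.335% CAAAGTTCA and 1.6% ATGCAAAT. A match describes letters and not a site of binding. The genes lie at chr6:71199827-71205023 (Fabp1), chr1:87098002-87101606 (Alpi) and chr1:144138654-144177372 (Rgs13), and the other genes of the rule at chr9:98486115-98509781 (Rbp2), chr3:138089854-138144968 (Mttp) and chr6:78422711-78428667 (Reg1), all coding for proteins.

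The rule genes showed how unlike the members were. Fabp1 ranged from 3.99 to 544 per 10000 over the 399 Rbp2-high members, with a median of 208, and from 87.3 to 760 over the 108 tuft-like members, with a median of 337. Tuft-like cells held so little of the other 4 genes that they met the limit mostly through Fabp1, so that its level in them follows from the rule. Rbp2, which carries retinol and retinal in the cell, ranged from 2.39 to 488 in Rbp2-high members (median 205) and from 0 to 14.5 in tuft-like members (median 2.81). At a level of 100, Rbp2 was reached by 315 Rbp2-high members and 0 tuft-like members, and Fabp1 by 317 and 107. The 2 ranges of Rbp2 overlapped only at their ends, with 6 Rbp2-high members under 20 per 10000. Mttp, the transfer protein that loads fat onto chylomicrons, had a median of 11.3 in Rbp2-high members and 0 in tuft-like members, where 92 of 108 cells had no UMI. Alpi had medians of 3.96 and 0, and Reg1, a secreted lectin of the Reg family, 43.2 and 0. Mttp, Alpi and Reg1 were thus at or near 0 in most tuft-like cells.

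**Figure D1:**
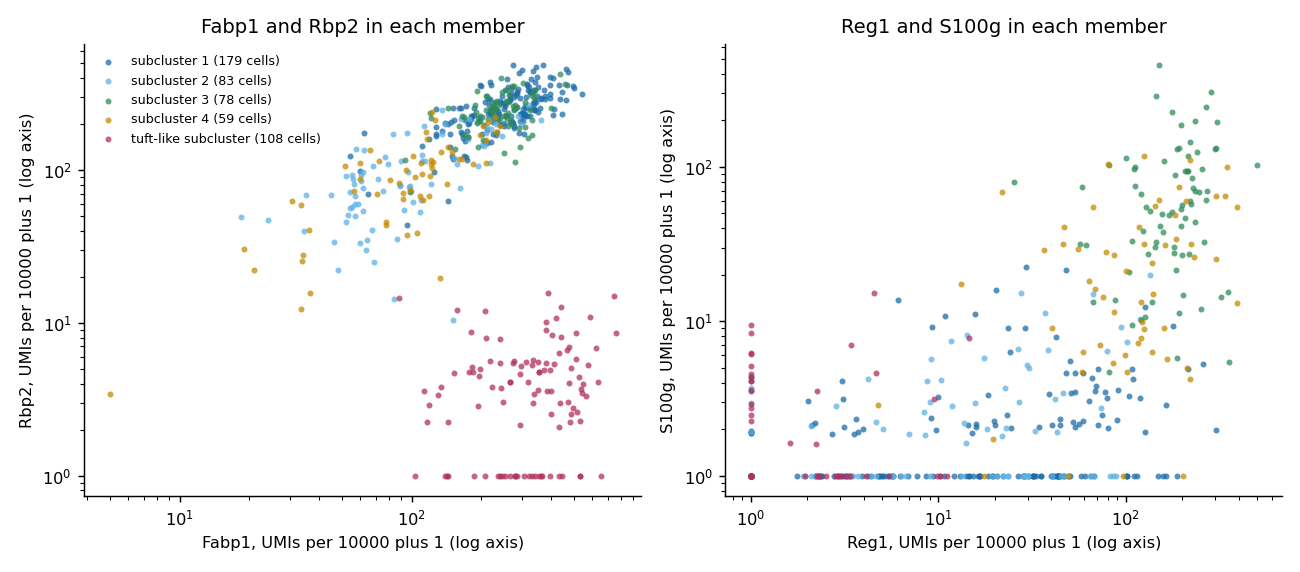
Each point is 1 of the 507 members, colored by subcluster, with Fabp1 against Rbp2 on the left and Reg1 against S100g on the right, in UMIs per 10000 plus 1 on log axes. The 108 tuft-like members lie at Rbp2 of at most 14.5 with Fabp1 of at least 87.3, and subcluster 3 lies high in both Reg1 and S100g.

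In tuft-like members the tuft sum ran from 27.6 to 117 per 10000 (median 71.0). Rgs13 was at 27.2 per 10000 against 0.141 in Rbp2-high members. Ltc4s, which makes leukotriene C4, was at 13.3 against 0.373. Dclk1, the kinase most used to mark tuft cells, was at 12.2 against 0.146. The actin-binding protein Avil was at 11.3 against 0.0966, the taste channel Trpm5 at 7.49 against 0.0862, and Pou2f3, the transcription factor tuft cells depend on, at 1.01 against 0.0157. All 8 tuft markers were present in tuft-like members, with Il25, the cytokine by which tuft cells alert immune cells, in 27 of 108 and in 0 of 399 Rbp2-high members, which allows up to 0.752%. The 5 genes that led the tuft-like cells by fold were Gm4952, Hmx3, Ahnak2, Folr1 and Spib. Krt18, a keratin of simple epithelia, had a median of 195 per 10000 in tuft-like cells and of 2.76 in Rbp2-high members. Ptprc, the leukocyte antigen CD45, was at a summed level of 2.71 against 0.0131 and was detected in 70 of the 108 tuft-like cells.

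Levels in tuft-like cells are set beside those in free RNA here, and the part of free RNA in them was not tested. In tuft-like cells Zg16 was at 11.2% of its level in free RNA, the goblet peptide Tff3 at 12.5%, the Paneth defensin Defa24 at 9.56% and Chgb at 8.44%. Rbp2 stood at 3.22 per 10000 against 16.5 in free RNA. Fabp1 stood at 345 against 16.9. Of 6182 genes tested between tuft-like and Rbp2-high members, 17.2% were at least 2-fold higher and 22.7% at least 2-fold lower in tuft-like cells. Among the genes of the microvillus list, the adhesion proteins Cdhr5 (23.4 against 5.90) and Cdhr2 (9.68 against 2.66) and the actin bundler Espn (20.4 against 2.60) were higher in tuft-like cells, and Pls1, another bundler, was lower (0.674 against 5.53). Tuft cells carry a tuft of long microvilli. Spink1, a trypsin inhibitor, was alike in both at 25.8 and 21.3, against 1.84 in the remaining cells.

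The rule did not take all tuft-like cells. In the whole library 249 cells had a tuft sum of at least 20 per 10000, of which 110 were members. Of the 139 that were not, 68 fell short of the enterocyte limit and 71 were over the limit on Chgb or goblet genes. The median of Fabp1 was 57.5 per 10000 in the 68 cells and 182 in all 249 cells with that tuft sum, whatever the rule made of them. Since Fabp1 is a gene of the rule, its level in the tuft-like members was set in part by the choice.

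The 399 Rbp2-high members (4.22% of all cells, 3.83 to 4.65%) were deep, with a median of 9425 UMIs and 2489 genes. Their summed profile was led by Reg3b (462 per 10000) and also held Reg3g (192), both secreted lectins that act on bacteria. Fabp1 (196), Rbp2 (189), the ferritin chain Fth1 (175), the intestinal fatty acid-binding protein Fabp2 (84.6), Plac8 (82.2), Reg1 (79.3), the apolipoprotein Apoa1 (68.6) and Prap1 (62.8) were also among the highest. The goblet genes Tff3 (91.7) and Zg16 (85.2) reached the same range, against 849 and 851 in free RNA. Of 12192 genes with enough UMIs, 1823 (15.0%) were at least 2-fold higher in Rbp2-high members than in the remaining cells and 3047 (25.0%) at least 2-fold lower, with a median log2 fold of -0.12. Over all 507 members the shares were 15.9% and 20.8% of 12233 genes. The counts of the lists below are read against these shares, and the 5 rule genes, 22.0- to 33.6-fold higher, were high by choice.

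The digestive enzymes of the brush border were, as a list, higher in Rbp2-high members than in the remaining cells. In sum the 16 hydrolases stood at 56.5 per 10000 (55.8 to 57.3) in Rbp2-high members and 5.31 (5.25 to 5.37) in the remaining cells, with 14 of 16 at least 2-fold higher. Anpep, an aminopeptidase, was at 15.3 per 10000 and 17.6-fold higher. Sis, the sucrase-isomaltase, was at 13.3 and 5.98-fold higher. Mgam, the maltase-glucoamylase, was at 6.68 and 13.5-fold higher. The metalloprotease Mep1b was at 3.99 and 18.2-fold higher, and lactase, Lct, which is high in suckling animals, was at 1.51 and 29.3-fold higher. Enpp3, an ectoenzyme that is also on the villus tip list, was the hydrolase that was at least 2-fold lower (fold 0.338).

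Of 13 transporters of sugars, peptides and amino acids, 12 were at least 2-fold higher, and their sum was 24.1 per 10000 against 3.05. Slc5a1, the sodium-glucose cotransporter SGLT1 of the apical membrane, was at 10.6 per 10000 and 18.1-fold higher. Slc2a2, the glucose transporter GLUT2, was at 2.23 and 36.7-fold higher. Both steps of glucose uptake were thus present. Slc3a2, the heavy chain of several amino acid exchangers, was at 2.19 and 3.56-fold higher, its partner Slc7a7 at 1.88 and 6.53-fold higher, and the peptide transporter Slc15a1 at 1.12 and 4.78-fold higher.

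Genes for fat uptake and chylomicron assembly were at least 2-fold higher in 18 of 19 cases, with a sum of 221 per 10000 against 22.3. Fabp2 was 9.25-fold higher, Apoa1 12.6-fold higher, and Apoa4, a chylomicron apolipoprotein, at 24.9 per 10000 and 15.7-fold higher. The acyl-CoA synthetase Acsl5 (9.04 per 10000) was 15.0-fold higher and Mogat2, which joins fatty acids to monoglycerides, was 22.6-fold higher. Apob, the structural protein of the chylomicron, was at 5.98 and 8.62-fold higher. The list thus covered the route from the fatty acid to the particle. Genes of fat oxidation were lower in level, at 9.81 per 10000 in sum, and 9 of 10 were at least 2-fold higher, among them the thiolase Acaa2 (5.29-fold) and Hadha (3.38-fold).

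Of the genes for retinoid, iron, calcium and vitamin handling, 10 had enough UMIs and 8 were at least 2-fold higher. S100g, the calcium buffer calbindin-D9k, was at 20.4 per 10000 and 20.9-fold higher, and held most of the list's sum of 25.1. The iron exporter ferroportin, Slc40a1, was at 1.02 and 15.8-fold higher, and Rdh7, a retinol dehydrogenase, at 0.917 and 15.7-fold higher. Heph, the ferroxidase that works with ferroportin, was at 0.880 and 2.54-fold higher, and higher still in tuft-like cells (1.97). Drug metabolism showed 15 of 17 genes at least 2-fold higher, led in level by the glutathione transferase Gsta1 (10.4 per 10000, 2.35-fold), the carboxylesterase Ces2e (5.89, 21.3-fold), the sulfotransferase Sult1b1 (4.21, 17.5-fold) and Gstm3 (3.27, 26.8-fold). Gsta4 went the other way (fold 0.324).

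The structural proteins of the brush border and the transcription factors set Rbp2-high members apart less. Of 10 microvillus genes 6 were at least 2-fold higher. Villin, Vil1, was 3.25-fold higher, and the keratin Krt20 was at 6.57 per 10000 against 8.53 in the remaining cells. Of 13 transcription factors 6 were at least 2-fold higher, with Maf at 15.0-fold and the nuclear receptor Hnf4g at 5.24-fold. Hnf4a, its paralog, was at 1.09 per 10000 against 1.15, and Elf3 at 2.22 against 2.30, so that these factors did not set the cells apart from other lineages. Klf5 was at 1.73-fold. Outside all lists, the genes with the largest folds at 5 per 10000 or more included the guanine deaminase Gda (24.1-fold), the sulfate donor enzyme Papss2 (17.3-fold), the alcohol dehydrogenase Adh6a (16.4-fold), the fructose kinase Khk (16.1-fold) and Prap1 (10.1-fold).

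**Figure D2:**
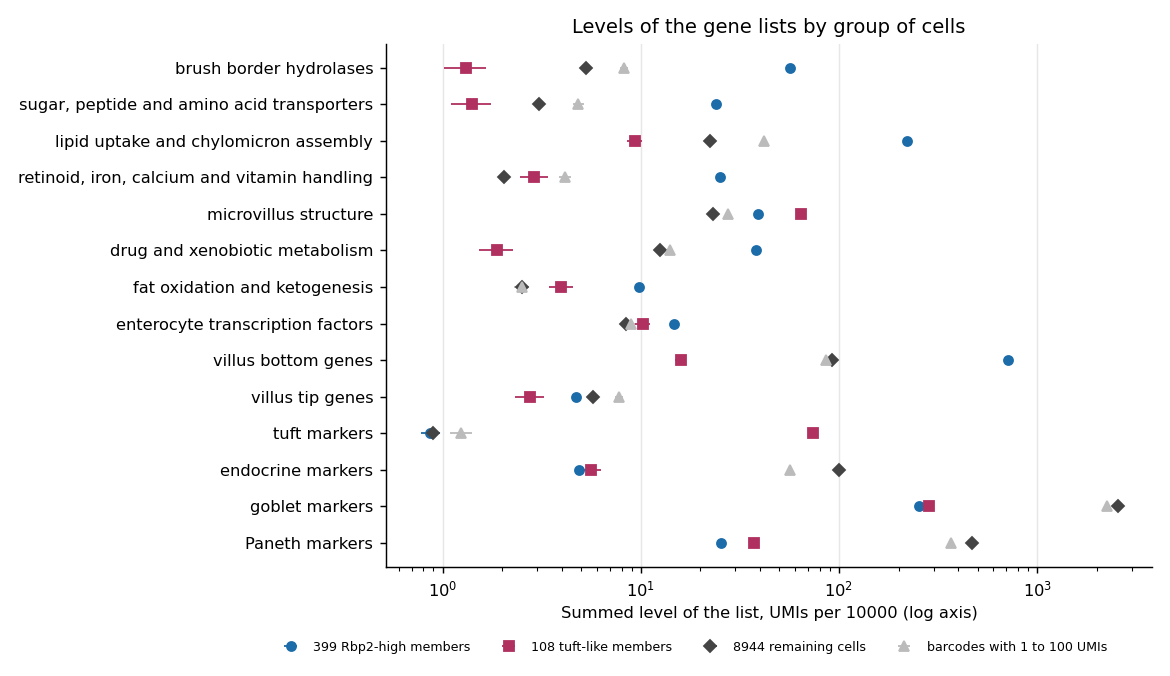
Summed UMIs per 10000 of each gene list on a log axis, in Rbp2-high members, tuft-like members, the 8944 remaining cells and barcodes with 1 to 100 UMIs, with Poisson 95% intervals as bars. The enterocyte lists are highest in the Rbp2-high members except for microvillus structure, at 64.7 in the tuft-like members and 39.0 in the Rbp2-high members. The tuft list is highest in the tuft-like members. The endocrine, goblet and Paneth lists are lower in both kinds of members than in free RNA. The rule limited Chgb and goblet genes, so the low endocrine and goblet sums are in part set by the choice.

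The levels of other lineages were low in Rbp2-high members. In sum the 14 endocrine markers stood at 4.85 per 10000 against 99.7 in the remaining cells and 56.3 in free RNA, with 13 at least 2-fold lower. The 10 goblet markers stood at 253 against 2544 and 2243. The 7 Paneth markers stood at 25.4 against 470 and 369. All 3 lists were thus far below their level in free RNA. The goblet list holds Zg16, Fcgbp, Clca1 and Spink4 and the endocrine list holds Chgb, which the rule limited. The low sums of these lists were therefore set in part by the choice of members. The 10 immune markers stood at 0.582 against 1.98. Of their 223 UMIs in Rbp2-high members, 71 were Gzma UMIs of 1 cell and 63 were Ccl5 UMIs of 1 cell. Of the cycling and crypt genes 9 of 10 were at least 2-fold lower, with a sum of 0.885 per 10000. Among the remaining cells that sum was 0.972 in those over the goblet limit only and 1.62 in those over the Chgb limit. It was 10.7 in the 858 cells over neither limit, so the low sum was not particular to Rbp2-high members. MHC class II genes, which enterocytes can carry, stood at 7.74 against 2.22, with 5 of 6 at least 2-fold higher. The invariant chain Cd74 was at 4.54 and H2-Aa at 0.530 per 10000.

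Along the gut, absorptive genes differ between the duodenum and the ileum. The distal genes Fabp6, the bile acid-binding protein, Slc10a2, the ileal bile acid importer, and Cubn were detected in 1, 2 and 2 of 399 Rbp2-high members, and the ileal hormone Fgf15 in 0, which allows up to 0.752%. The shares in Rbp2-high members and remaining cells were 0.251% and 0.380% for Fabp6, 0.501% and 0.458% for Slc10a2, and 0.501% and 0.101% for Cubn. Both chains of the bile acid exporter, which are on the distal list too, were present, Slc51a at 1.74 per 10000 and 23.3-fold higher and Slc51b at 2.98 and 28.1-fold higher. The distal list stood at 5.67 against 0.653 per 10000, with 3 of 4 genes tested at least 2-fold higher. The proximal list stood at 3.64 against 1.84 per 10000, with 2 of 4 genes at least 2-fold higher, Lct among them, while Gata4, a factor of the proximal gut, was at 1.90-fold.

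The Rbp2-high members were not uniform. Clustering gave 4 subclusters of 179, 83, 78 and 59 cells. Subcluster 1 (179 cells) was led by Dnase1, Guca2b, Lct, Aldh1a1 and Apoa1 and held the highest levels of Apoa1 (114 per 10000), Apoa4 (37.8), Sis (19.6) and Slc5a1 (15.2). Guca2b encodes uroguanylin, a peptide that sets salt and water secretion, and was at 29.0 per 10000 against 6.24 in all other members. MHC class II genes summed to 11.4 per 10000 there, against 3.33 to 6.32 in the other 3 subclusters. Subcluster 2 (83 cells), led by Gsdmc4, Mt2, C1qbp, Oat and Ms4a18, had lower Fabp1 (110) and Rbp2 (102) and a median of 205 for the rule sum, against 574 in subcluster 1. Gsdmc4, a gasdermin of the villus bottom list, was at 1.09 per 10000 against 0.195 in all other members.

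Subcluster 3 (78 cells) was high in genes of calcium and iron handling. S100g was detected in 78 of its 78 cells, at 79.7 per 10000 against 6.47 in all other members, and the ferroportin gene Slc40a1 was at 3.10 against 0.495. Subcluster 4 shared this in part, with S100g in 55 of its 59 cells and Slc40a1 at 2.04. The retinoid, iron, calcium and vitamin list summed to 87.7 in subcluster 3, 32.6 in subcluster 4, 5.60 in subcluster 1 and 5.30 in subcluster 2. Reg1 (188 per 10000), Alpi (13.1), Fth1 (312) and Prap1 (112) were at their highest among the subclusters, whereas Apoa1 was at 66.0. The xenobiotic enzyme Cyp3a11 was at 1.19 against 0.150. Gzma and Ccl5, genes of cytotoxic lymphocytes, were also among its 5 leading genes, but 71 of the 75 Gzma UMIs and 63 of the 70 Ccl5 UMIs came from 1 cell.

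S100g reached 20 per 10000 in 94 members, of which 35 (37.2%) had Apoa1 of at least 60. Of the other 305 Rbp2-high members 172 (56.4%) reached that level of Apoa1, so that high Apoa1 was less common among the cells with high S100g, though not absent. Of the 94 cells, 76 also had Reg1 of at least 100 per 10000. Over single cells S100g ranged from 0 to 460 per 10000, with 144 of 399 Rbp2-high members at 0, so that the calcium buffer was high in some cells and at 0 in others.

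**Figure D3:**
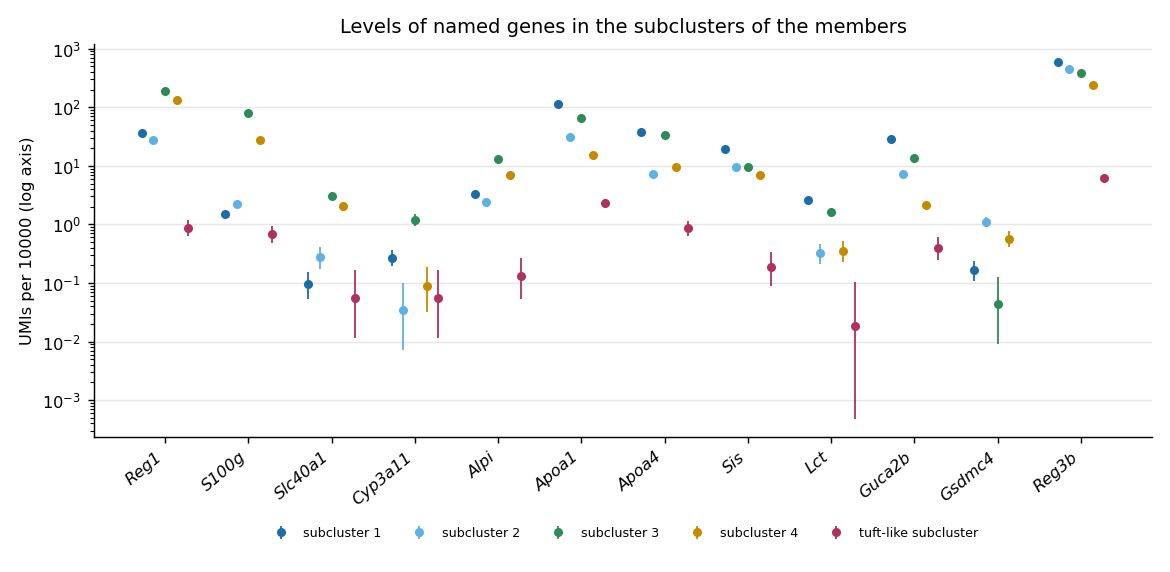
Levels of leading genes in the 4 subclusters of Rbp2-high members and in the tuft-like subcluster, in UMIs per 10000 on a log axis, with Poisson 95% intervals as bars, where a level of 0 is not drawn. S100g stands at 79.7 in subcluster 3 and at 1.51 in subcluster 1, and Apoa1 at 66.0 and 114.

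Subcluster 4 (59 cells) was led by hormones and endocrine genes, Scg2, Nts, Cck, Rbp4 and Sst, which goes against an enterocyte name. A few cells carried most of them. Of its Cck UMIs 92.2% came from 7 of its 59 cells, and so did 91.3% of the Scg2, 91.7% of the Nts and 91.5% of the Rbp4 UMIs, but 0.467% of the Sst UMIs. With 1 cell of subcluster 1 there were 8 members with Cck of at least 100 per 10000. In these 8 cells Cck, the satiety hormone cholecystokinin, ranged from 123 to 1292 per 10000 (median 478), against a median of 9.0 in the other 391 Rbp2-high members. Sct, the hormone secretin, ranged from 161 to 691, Ghrl, ghrelin, from 21.7 to 281 and Nts, neurotensin, from 0 to 120, whereas the K cell hormone Gip stayed at 1.04 to 6.39. The same 8 cells held Rbp2 at 42.5 to 244 per 10000 and a rule sum of 136 to 601.

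Their granule genes differed. Scg2, a granin, ranged from 4.91 to 23.5 per 10000, against a median of 0 in the other 391 Rbp2-high members. Chgb, which the rule held under 20, ranged from 4.17 to 13.0 (median 10.2), against a median of 2.20 in the other 391 and of 216 in the 4028 cells over the Chgb limit. Chga, which the rule did not use, ranged from 1.04 to 7.48 against a median of 58.7 in those cells and of 1.13 in the other 391 Rbp2-high members. Their depth was 5347 to 16186 UMIs, and 1 of the 8 ranked in the top 715 of all cells by Scrublet doublet score, a set that held 9 of all 507 members. Whether these droplets held more than 1 cell was not tested further. Without these cells the other 52 of subcluster 4 had Cck at 7.56 and Sct at 11.3 per 10000, against 111 and 171 in free RNA, with Ghrl at 13.7 against 60.8 and Sst at 10.6 against 9.21, and with Reg1 at 145 and S100g at 29.6. Single cells among the other 391 Rbp2-high members reached 405 for Ghrl and 505 for Sst. The median of Sst over these 391 cells was 0, and how many of the 52 cells carried its UMIs was not counted. The 52 cells were then led by Sst, somatostatin, and by Dmbt1 (10.2 against 3.01 per 10000 in all other members), a mucosal scavenger protein, Hnrnpa1, Slc40a1, Hspd1, C1qbp and Pycard (17.0 against 6.20), the adaptor of inflammasomes.

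To describe position on the villus, members were ordered by the share of villus tip genes among UMIs of a tip list and a bottom list, and put in 5 bins. With the tuft-like cells in, the order was not one of enterocytes alone, since 62 of the 96 cells of the last bin were tuft-like, and 27 of 39 genes of the enterocyte lists that did not set the order were lower in the last bin than in the first and 4 higher. These are genes at 2 per 10000 or more. Among the 399 Rbp2-high members alone, 10 of 41 such genes were higher and 8 lower, by intervals that did not overlap, and of the 110 list genes at any level, counted after seeing the data, 23 were higher and 8 lower. With all members and the Reg3 genes taken out of the bottom list, 4 genes were lower and 17 higher. The share of all genes that differed between the first and last bins was not counted, so these counts have no background to be read against. The order is thus a description that rests on few tip UMIs, and the bins are ranges of a score. Over the Rbp2-high members the tip list stood at 4.74 per 10000, below the 5.73 in the remaining cells and the 7.79 in free RNA. The part of free RNA in the order was not tested. The bottom list stood at 1057 per 10000 in the first bin and 307 in the last, and the tip list at 1.92 and 7.25, both by construction. Of the tip genes 6 of 7 were at least 2-fold lower in Rbp2-high members than in the remaining cells, and Creb3l3, a regulator of fat metabolism, was 18.9-fold higher.

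Toward the last bin, S100g was at 51.0 per 10000 (49.4 to 52.7) against 6.03 (5.48 to 6.61) in the first. The cadherin Cdhr2 was at 3.32 against 2.00, the apolipoprotein Apoc3 at 8.76 against 5.48, Espn at 2.96 against 1.94 and Gstm3 at 3.89 against 2.58. Sis went from 16.8 (15.9 to 17.8) to 9.52 (8.83 to 10.3) per 10000. Slc3a2 went from 2.80 to 1.67, Mgam from 7.89 to 5.01, Apoa1 from 78.6 to 50.6 and Mep1b from 4.73 to 3.15. These 5 genes were thus higher at the start of the order. Apoa4 (20.2 to 26.9) and Apoa1 went in opposite directions. Slc5a1 (10.7 to 10.0) and Apob (6.07 to 5.78) had intervals that overlapped. Of the 78 cells of subcluster 3, 32 were in the last bin and 6 in the first, so the order and the subclusters share cells.

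**Figure D4:**
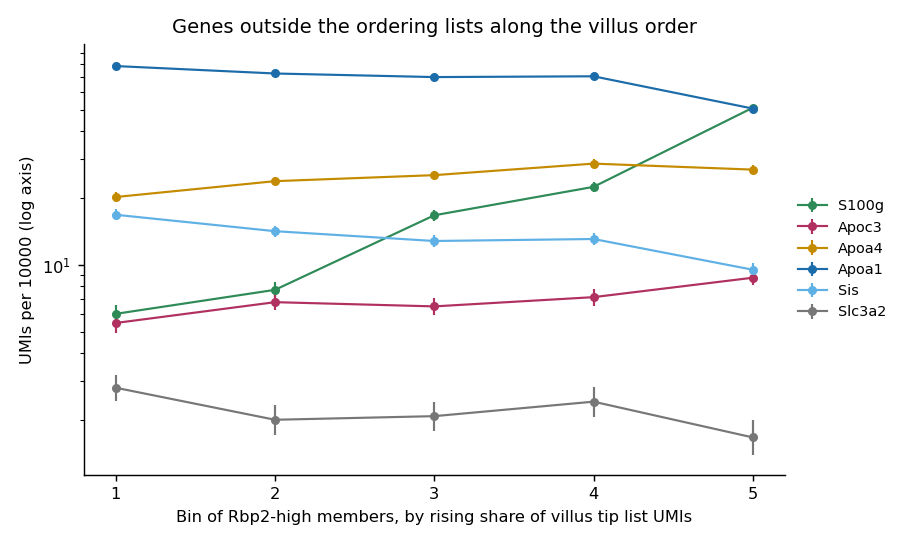
UMIs per 10000 on a log axis in 5 bins of the 399 Rbp2-high members, by rising share of villus tip UMIs, for genes outside the lists that set the order. Lines join the bins, bars are Poisson 95% intervals, S100g, Apoc3 and Apoa4 are higher in the last bin than in the first, and Apoa1, Sis and Slc3a2 are lower.

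The bulk libraries asked how genes of absorptive cells differ between cells that had Cck-Cre activity and the rest of the sorted epithelium, and after refeeding. Values are normalized counts of the authors, tested with limma on log2(normalized count + 1), so that folds of low genes are understated, with Benjamini-Hochberg adjusted p-values over 22042 genes. Between CCK+ and CCK- libraries 19.6% of genes were higher and 14.1% lower in CCK+, with a median log2 difference of 0.09 over all genes. Of 116 genes of the enterocyte lists, 91 were lower in CCK+, 5 were higher, and their median log2 difference was -0.88. The sum of the 5 rule genes ran from 34836 to 82058 (median 57055) normalized counts in the 6 CCK+ libraries and from 93242 to 122736 (median 108277) in the 6 CCK- libraries, so that the groups did not overlap. The 14 endocrine markers summed to 63670 to 237447 in CCK+ and 1387 to 2771 in CCK-, and the 10 immune markers to 5406 to 10315 and 465 to 1148. In bulk, fewer enterocytes and less RNA per enterocyte cannot be told apart. The part of these other cells in the differences was not tested.

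The rule genes were lower in CCK+ in 5 of 5 cases. Fabp1 was at 9101 to 17128 (median 10828) normalized counts in CCK+ and at 20905 to 33805 (median 26082) in CCK-, with no overlap (log2 difference -1.18 ± 0.16 SE, adjusted p = 4.14e-05). Reg1 differed most (-1.99 ± 0.28, adjusted p = 6.75e-05) and Rbp2 least (-0.66 ± 0.18, adjusted p = 0.00902), with CCK+ libraries at up to 19464 inside the CCK- range of 17994 to 24652. Mttp (-1.01) and Alpi (-0.88) lay between them. RNA of the rule genes was thus lower in the CCK+ sort and still plentiful there.

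Among the lists, 16 of 16 hydrolases and 18 of 18 drug metabolism genes were lower in CCK+. Sis was at 20416 to 34427 in CCK+ and 64185 to 84025 in CCK- (log2 difference -1.53, adjusted p = 1.64e-05), and the peptidase Dpp4 was lower by a like amount (-1.40). Of 13 transporters 10 were lower. Slc2a2 differed most (-2.06 ± 0.20, adjusted p = 1.90e-06), with 2010 to 6833 in CCK+ and 11838 to 16945 in CCK-, followed by Slc5a1 (-1.50). Both glucose transporters had groups that did not overlap. Of 19 lipid genes 13 were lower, Fabp2 most (-1.67) and the fatty acid receptor Cd36 next (-1.30), and Scarb1, the HDL receptor, was higher (0.84). Apoa1 (-0.38, adjusted p = 0.232) and Apoa4 (-0.45, adjusted p = 0.0979) did not pass the test. In the retinoid and mineral list 10 of 13 were lower, with the calcium channel Trpv6 (-1.72) and Slc40a1 (-1.61) first, and the carotene oxygenase Bco1 was higher (1.56).

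Of 10 microvillus genes 6 were lower, Pls1 (-1.55) and the brush border myosin Myo1a (-0.92) among them. Of 10 fat oxidation genes 7 were lower, with Angptl4 (-1.20), a lipase inhibitor, and Acaa2 (-1.12) first. Of 13 transcription factors 7 were lower, Maf (-1.46) and Hnf4g (-1.20) most, and Cdx1 (0.58) and Cdx2 (0.43) were higher. Angptl4 did not pass the test in 7 of the 12 fits that left out 1 library, and Cdx2 in 8. Cyp3a25 (-1.85) and Gsta4 (-1.81) led the drug metabolism list. None of 7 MHC class II genes and none of 8 tuft markers passed the limma test, with 1 gene of each list under an unadjusted p of 0.05, and their median differences were -0.47 and -0.57. With the fasted libraries alone 35 enterocyte list genes were lower and 0 higher, and with the refed libraries alone 69 were lower and 5 higher; whether these counts differ was not tested.

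**Figure D5:**
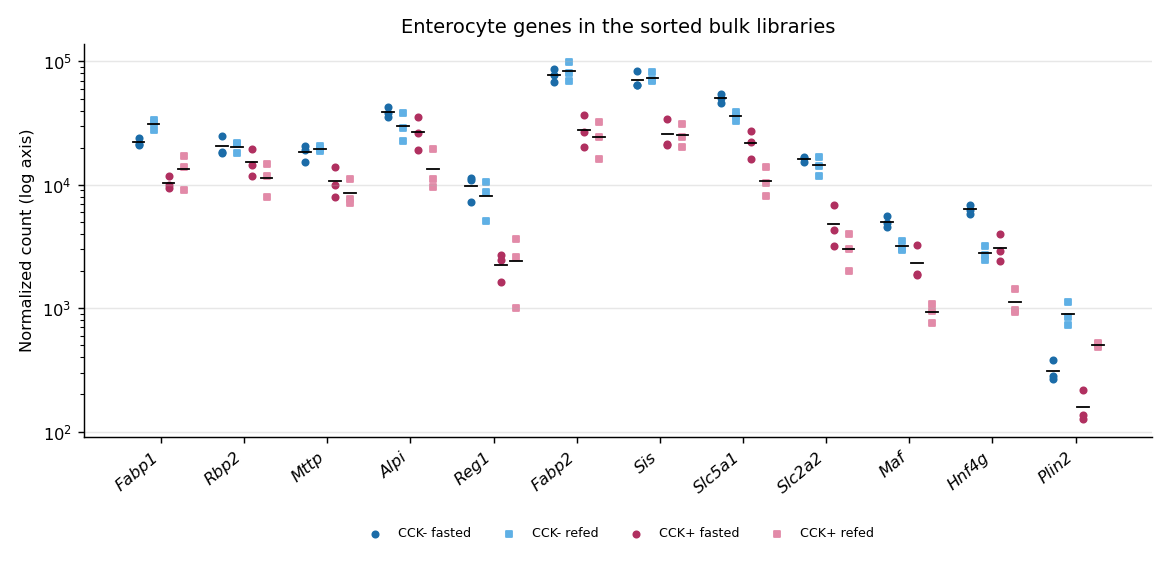
Normalized counts of genes of the enterocyte lists in each of the 12 bulk libraries on a log axis, by sort (CCK+ or CCK-) and state (fasted or refed), 1 point per library, with a line at each group's mean of 3. For Fabp1, Slc2a2 and Sis every CCK+ library lies below every CCK- library.

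Fed state went with a difference in few of these genes in the CCK- cells. Of the 22042 genes, 0.708% were higher and 0.526% were lower in refed than in fasted CCK- libraries. Of 116 enterocyte list genes 1 was higher and 7 were lower, and 0 of the 5 rule genes passed the limma test, with 1 of them, Fabp1, under an unadjusted p of 0.05. Plin2, a coat protein of lipid droplets, was at 269, 283 and 382 normalized counts in the 3 fasted libraries and 730, 1124 and 852 in the 3 refed libraries (log2 difference 1.53 ± 0.22 SE, adjusted p = 0.00385), with no overlap. Refed libraries were thus the high ones for the lipid droplet gene. Hnf4g was at 6214, 6870 and 5844 in fasted and 3221, 2452 and 2723 in refed libraries (-1.18 ± 0.21, adjusted p = 0.0135). Slc15a1, the peptide transporter, was at 9425, 12005 and 11725 in fasted and 5579, 5654 and 5346 in refed libraries (-0.99, adjusted p = 0.0287). The refed libraries were the low ones for both. In the CCK+ libraries Hnf4g was at 2397, 3976 and 2919 fasted and 1428, 936 and 974 refed, and Plin2 at 126, 216 and 137 fasted and 482, 515 and 524 refed. Abcg8, which returns sterols to the lumen (-1.27, adjusted p = 0.00834), Pdk4, a kinase that spares glucose in the fasted state (-1.64, adjusted p = 0.0188), the drug exporter Abcb1a (-0.77), and the nuclear receptors Vdr (-0.84) and Nr1i2 (-0.81) were also lower. Fabp1 did not pass the test (0.49, adjusted p = 0.406).

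These calls depended on the libraries in the fit. The count of 7 lower genes became 0 without the fasted CCK- library B or the refed CCK- library D, 1 without the CCK- library C or E or the CCK+ library D, 2 without the CCK- library A or F or the CCK+ library F, 3 or 4 without the CCK+ library A or E, and 5 without the CCK+ library B or C. Genes called higher numbered 1, or 2 without the CCK+ library B. With the CCK- libraries alone 1 was lower and 0 higher. Plin2 kept its call in the 12 fits that left out 1 library (adjusted p from 0.00523 to 0.0447, limma) and lost it with the CCK- libraries alone (0.0998). Abcg8 lost its call in 3 of the 12 fits, Hnf4g in 5, Abcb1a, Pdk4 and Slc15a1 in 10 each, Nr1i2 in 11 and Vdr in 12. The proliferation genes Mki67 (1.07) and Top2a (1.40) and the goblet gene Agr2 (1.00) were also higher in refed libraries, lost their calls in 10 of the 12 fits each, and their part in the differences was not tested.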

How the data were processed

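The authors aligned the droplet reads to mm10 with Cell Ranger 2.0.1, and the deposited UMI counts, with gene and barcode lists, cover all barcodes before any cell call. For bulk data the authors trimmed reads with Trim Galore 0.6.7, ran Salmon 1.6.0 on GRCm39 and divided gene counts by DESeq2 normalization factors. These deposited normalized counts are a signal that is not whole and do not give read depth. They summed to 7061155 to 9868241 in the CCK+ libraries and to 9900561 to 11371114 in the CCK- libraries. These ranges did not overlap, and their part in the differences between the sorts was not tested. The 4 bulk records hold 12 libraries, mapped by sort and state, with a letter each.

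Barcodes with more than 1000 genes and under 10% mitochondrial UMIs were kept. Levels are summed UMIs per 10000 with exact Poisson intervals, and folds need at least 50 UMIs over both groups. Subclusters used 2000 variable genes, 40 components, 15 neighbors and Leiden resolution 0.5 (Python 3.11.15, scanpy 1.11.5, leidenalg 0.10.2). Villus bins used cells with at least 5 UMIs over both lists together. Scrublet called 0 of 9451 cells at its automatic threshold, so no cell was left out as a doublet. Bulk genes were tested with limma 3.58.1 (R 4.3.3), 1 mean per group and a mean-variance trend, at an adjusted p of 0.05. The p-values measure the spread between these libraries. Scripts were tested on simulated data.

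Named genes were the rule genes, in each list the up to 4 highest in level and the highest in fold, up to 10 outside the lists by fold, 5 leaders per subcluster, up to 5 in each direction over bins, and up to 2 per list and direction in bulk; a few others (Il25, Krt18, Ptprc, Spink1, Cdhr2, Pycard, the 8 Cck cells and genes called after refeeding) were named after their values were seen. The members and the gene lists were chosen with earlier results of these data known. Other cell limits, bins, pseudocounts, filters, a block on the library letter and left-out libraries were tried. A few genes that the rule names are not reported here.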

Additional observations from a re-analysis of the deposited data

How the results depend on the processing

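The number of members ran from 399 to 747 and their share of cells from 3.36 to 8.25% under the settings that were tried. These were other limits on cells and markers, and leaving out the tuft-like cells. The number of genes at least 2-fold higher in the members ran from 1746 to 2174. Leaving out the tuft-like cells was chosen after seeing the data. In the villus order, genes lower in the last bin numbered 8 without the tuft-like cells and 4 with the bottom list without Reg3 genes, against 27; genes higher numbered 10 and 17, against 4. For CCK+ against CCK-, the fasted libraries alone gave 2169 called genes, with 35 enterocyte list genes lower and 0 higher, and leaving out 1 library gave 6520 to 7618, 83 to 95 and 4 to 5. For refed against fasted CCK- cells, the CCK- libraries alone gave 63 called genes, with 1 lower and 0 higher in the lists, and leaving out 1 library gave 79 to 268, 0 to 5 and 1 to 2. The library letters of CCK+ and CCK- are not stated to pair them; same-lettered libraries deviated together by a correlation of 0.0594 to 0.0935, and 12 of 12 correlated best with their own letter. The replicate block on this letter gave 7881 and 283 called genes, with 92 and 7 lower in the lists. The 26 genes called for CCK+ against CCK- and the 11 called for refeeding that were run kept their direction; 38 of 468 and 103 of 187 combinations of gene and setting lost the call. The causes were not tested. Depth limits the droplet data to genes with at least 50 UMIs over both groups.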

Other observations

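Within the family of small carriers for fatty acids and retinoids, the Rbp2-high members held Fabp1, Rbp2 and Fabp2 and hardly any of the others. Fabp5, the epidermal form, was at 0.183 per 10000 (fold 0.110 over the remaining cells) and Rbp7 at 0.115 (fold 1.18). Fabp1 and Rbp2 are genes of the rule and were high by choice. In the bulk libraries 3 of 7 genes of the family were lower and 2 higher in CCK+ than in CCK- libraries. Over all genes 14.1% were lower and 19.6% higher.

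Cycling and crypt genes summed to 3.46 per 10000 in tuft-like members, 0.885 in Rbp2-high members and 3.06 in the remaining cells. Among the remaining cells the sum ran from 0.972 in those over the goblet limit only to 10.7 in those over neither limit. Immune markers summed to 3.09, 0.582 and 1.98. In tuft-like members 145 of the 165 UMIs of the immune list were of Ptprc, so that this gene carried most of the sum.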
